A study of Mus musculus with 25 samples.

Results

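The 59 genes described here are the mouse Rab GTPase genes of a table of 23351 genes. They are the 58 symbols made of "Rab", a number and at most 1 letter and 1 further digit, plus 5430435G22Rik, the gene now called Rab7b. They were measured in 25 RNA-seq libraries from mouse brain, with 7 libraries taken at Day 15 and 8 at Day 5 of white matter stroke, an ischaemic injury of myelinated fibre tracts, and 10 labelled Control. The labels call the captured cells oligodendrocyte precursor cells (OPC), the dividing glia that give rise to myelinating oligodendrocytes, and the material was cut from brain tissue by laser capture and amplified before sequencing. The labels give no strain, sex, age in life, animal or batch, and do not say whether the Control group had a sham operation. Nothing ties the libraries to animals, so p-values measure the spread between these samples, and any animal that gave several libraries makes them too small.

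Rab proteins are small GTPases that sit on membranes through a lipid anchor and switch between a GTP-bound form, which recruits effector proteins, and a GDP-bound form. Each marks a stretch of the traffic between organelles: Rab5 proteins the early endosome and new phagosome, Rab7 the late endosome and the maturing phagosome before it fuses with lysosomes, Rab11 and Rab8 proteins the routes back to the cell surface, and Rab1, Rab2 and Rab6 proteins the routes through the endoplasmic reticulum and Golgi. Exchange factors switch them on, GTPase-activating proteins switch them off, and GDP dissociation inhibitors carry them off the membrane. In glia the same routes serve the delivery of myelin components and, in phagocytes, the digestion of myelin debris.

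The start of the coding sequence is shown for the 5 Rab genes with the smallest p at Day 5, because the question of whether reads of Rab7b, the gene that passed the test, could come from its nearest relative Rab7 is one of sequence. Each line runs from the start codon, base 1 of the coding sequence, through the phosphate-binding loop that holds the nucleotide, whose 24 bases are in capitals, and is written 5′ to 3′ on the coding strand. The sequences come from GENCODE M21 on GRCm38, a later build than the authors' mm9. The genes lie on chromosomes 1 (Rab7b, plus strand), 6 (Rab7, minus strand), 11 (Rab1, plus strand, and Rab5c, minus strand) and 9 (Rab8b, minus strand).
5430435G22Rik (Rab7b): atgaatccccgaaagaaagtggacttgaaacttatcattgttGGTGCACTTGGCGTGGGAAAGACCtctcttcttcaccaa
Rab7: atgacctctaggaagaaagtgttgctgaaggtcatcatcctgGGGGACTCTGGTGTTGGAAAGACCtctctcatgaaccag
Rab1: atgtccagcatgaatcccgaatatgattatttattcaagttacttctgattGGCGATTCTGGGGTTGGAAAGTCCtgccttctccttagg
Rab5c: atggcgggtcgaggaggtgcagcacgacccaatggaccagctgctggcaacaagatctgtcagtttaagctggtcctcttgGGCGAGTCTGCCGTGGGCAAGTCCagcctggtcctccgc
Rab8b: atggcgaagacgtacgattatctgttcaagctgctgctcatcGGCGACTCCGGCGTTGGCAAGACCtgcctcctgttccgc
In the loop, Rab7b matched Rab7 at 17 of 24 bases, Rab5c also at 17, and Rab1 and Rab8b at 20 each. Over the aligned coding sequences Rab7b and Rab7 were 58.9% identical, and their longest identical run was 18 bases, against a read length of 100 bases. Of the member pairs aligned, Rab6a and Rab6b were the most alike at 78.5% identity, and the longest identical run was the 38 bases shared by Rab1 and Rab1b. No stretch of 100 bases of a Rab7b or Rab1 transcript occurred in a transcript of another gene. Among the 20 tested members, 7 did share such a stretch with another gene, and 8 overlapped an exon of another gene. Rab7 shared one with the pseudogene Rab7-ps1, Rab8b with the gene model Gm20689, Rab11b with Rab11b-ps2, and Rab43 most of its transcript with Gm45140, so their levels are uncertain to that extent.

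The libraries differed widely in what they held. Genes at an RPKM (reads scaled to gene length and library size) of at least 1 numbered 1749 to 5266 at Day 15, 2353 to 6592 at Day 5 and 1306 to 4320 in Control libraries, and the reads behind each value are unknown. Of the precursor markers, Pdgfra was above 0 in every library but reached 1 RPKM in 1 of 7 Day 15, 6 of 8 Day 5 and 3 of 10 Control libraries, and Cspg4 was at 0 in 3 Control libraries. Sox10 reached 1 RPKM in 4 of 7 Day 15, 7 of 8 Day 5 and 7 of 10 Control libraries. Olig2 did so in 0, 1 and 4. The 9 precursor markers summed to 14.8 to 283 RPKM at Day 15, 19.4 to 111 at Day 5 and 7.44 to 112 in Control libraries. Mbp, a myelin gene of mature oligodendrocytes, was at 1 RPKM or more in every library, and its medians were 32.5 RPKM at Day 15, 75.3 at Day 5 and 139 in Control libraries. In such samples, fewer cells of a type and less RNA per cell cannot be told apart. An earlier analysis of these data found Day 5 replicate 4 and Day 15 replicates 5 and 6 to resemble each other, and results that change without them are given both ways.

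Every Rab gene was above 0 somewhere, but most were low. Of the 59 members, 20 (33.9%) reached 1 RPKM in at least 7 libraries and were tested, against 18.5% of all genes. Another 27 reached 1 RPKM in 1 to 6 libraries and 12 in none. At the edge of that filter, Rab7b was in with exactly 7 libraries, of which 4 were Day 5, 3 Day 15 and none Control, while Rab2b and Rab9 were out with 6 each. Rab7b thus entered the test through the groups in which it was high.

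**Figure D1:**
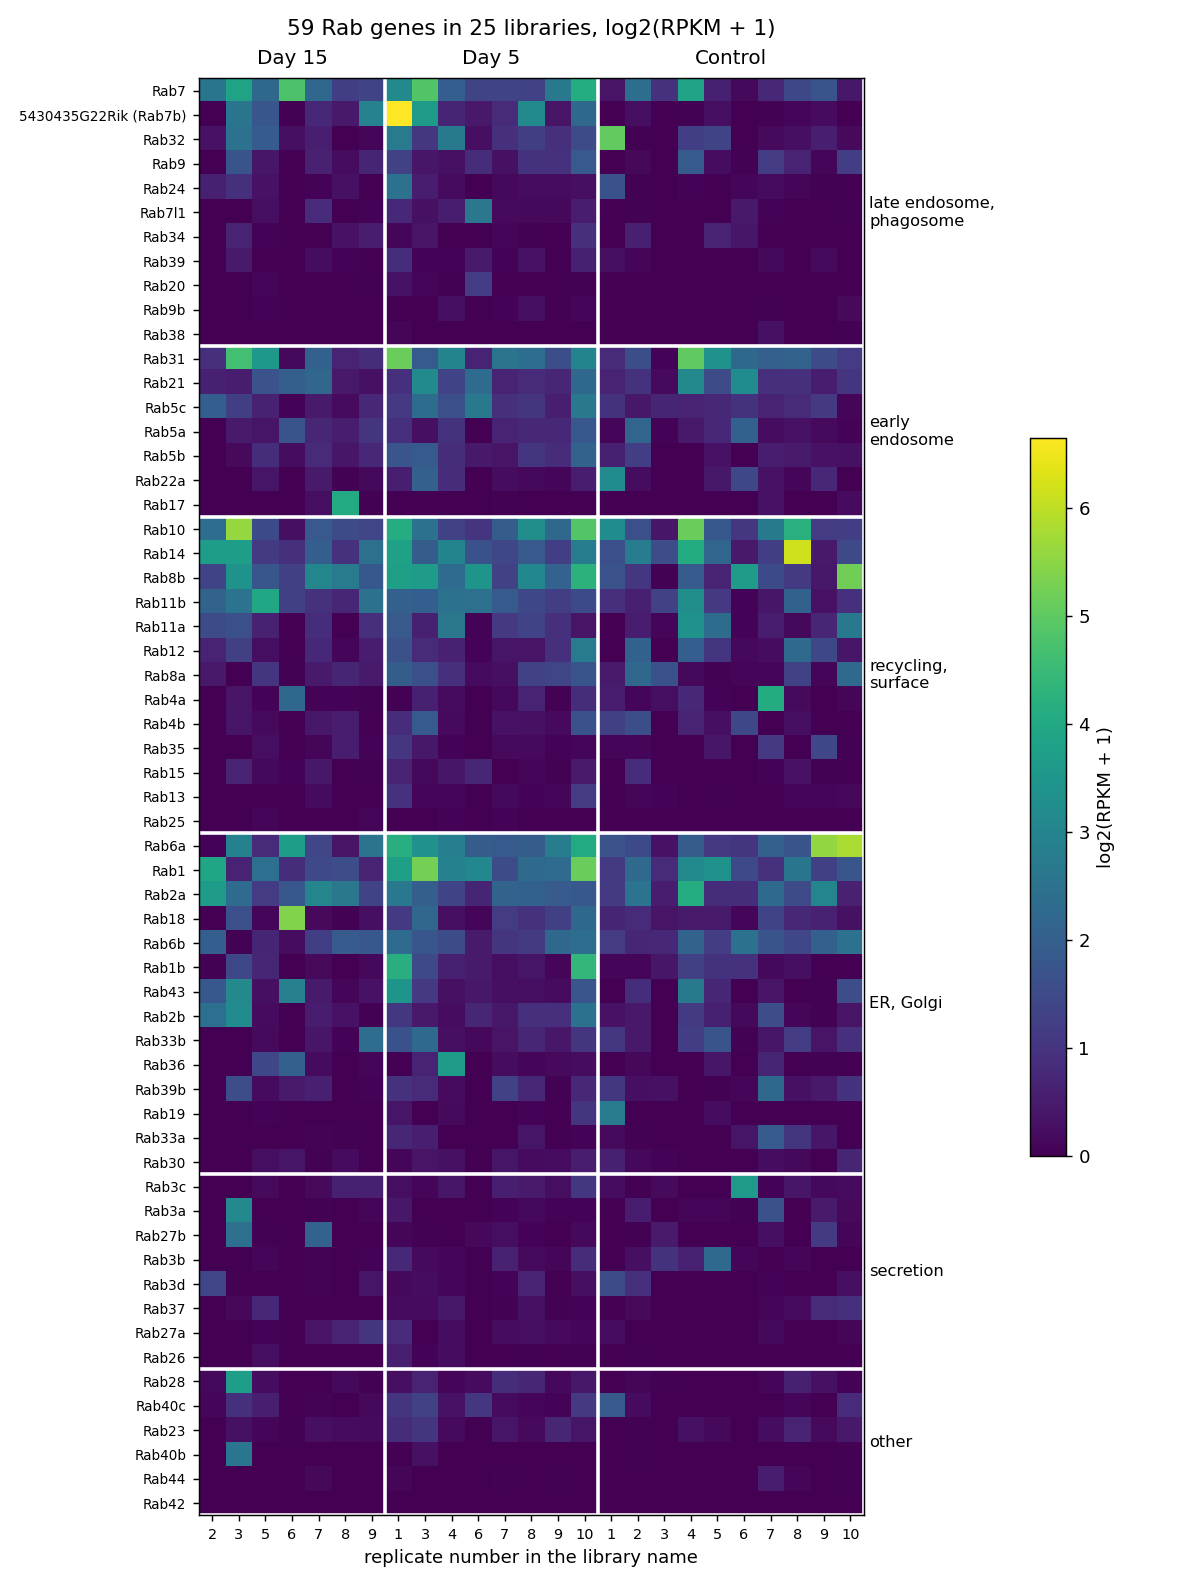
Expression of the 59 Rab genes (rows, by role) in the 25 libraries (columns, by group and replicate number), coloured by log2(RPKM + 1). Some of the brightest cells are single libraries of a gene, as with Rab14 in Control replicate 8 (71.4 RPKM) and Rab18 in Day 15 replicate 6 (41.3 RPKM). Others gather in a few libraries. The summed RPKM of the 59 genes was highest in Day 5 replicate 1 (295) and lowest in Control replicate 3 (12.6). The secretory Rabs are dark in nearly all libraries.

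The most abundant Rab genes over all 25 libraries, by mean RPKM, were Rab6a (8.21), Rab10 (8.03), Rab14 (7.04), Rab1 (6.69), Rab31 (6.44), Rab8b (6.30), Rab7 (5.76) and Rab7b (5.61), followed by Rab2a (3.74). Neighbours in this order did not differ beyond their spread, since single libraries held much of each mean. The place of Rab7b rested on Day 5 replicate 1, without which its mean was 1.71 RPKM, and its median over all libraries was 0.270, against 2.77 for Rab2a. By medians Rab1 (3.87), Rab31 (3.13) and Rab6a (2.86) led. Rab14, which works between the Golgi, endosomes and phagosomes, averaged 10.5 ± 21.9 RPKM in Control libraries (SD, n = 10), of which 71.4 stood in replicate 8. The number of Rab genes at 1 RPKM or more ran from 7 to 23 with a median of 11 at Day 15, from 12 to 29 with a median of 15 at Day 5, and from 3 to 19 with a median of 13 in Control libraries. The summed RPKM of all 59 had medians of 58.9 at Day 15, 71.3 at Day 5 and 68.5 in Control libraries, and the ranges of the 3 groups overlapped.

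The comparison of Day 5 with Control asks which Rab genes differed early after the stroke. Of the 20 tested members, 1 rose, Rab7b, and none fell, against 261 of all 4319 tested genes called in either direction (6.04%). Of all tested genes 6.02% rose and 0.0232% fell, so the share among the Rab genes (5%) was near the background. The other 19 had adjusted p between 0.135 and 0.999 in limma on log2(RPKM + 1), with Benjamini-Hochberg adjustment over all tested genes. Unadjusted p was under 0.05 for 5 members (25%), against 26% of all genes. The fitted change was above 0 for 18 of 20 members with a median of 0.47 on the log2 scale, below the median of 0.61 over all tested genes, of which 84.9% were above 0. That direction depended on the scaling: with upper-quartile scaling 8 members were above 0 and the median was -0.19, with scaling to the same sum 9 and -0.10, and with quantile normalization 6 and -0.18, while the all-gene median was 0.10, 0.15 and -0.02.

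**Figure D2:**
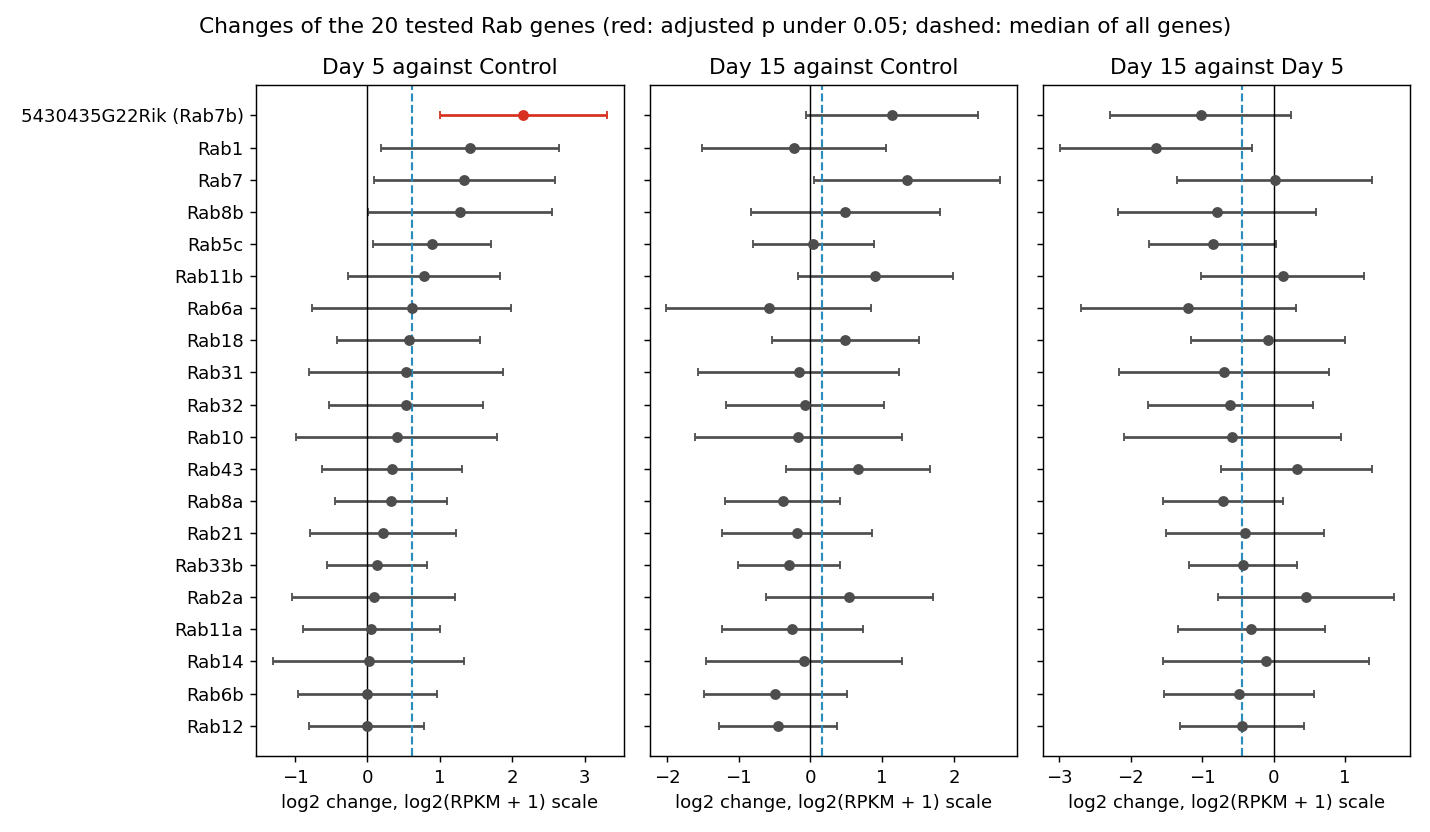
Log2 change of the 20 tested Rab genes (points, with 95% limma intervals) in the 3 comparisons, with the median of all tested genes as a dashed line. Rab7b at Day 5 against Control (2.15) is the only member drawn in red for an adjusted p under 0.05, and the intervals of all other members cross the dashed line.

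Late endosome and phagosome Rabs held the member that rose. Rab7b, a late endosomal and Golgi Rab described in macrophages as a brake on Toll-like receptor signalling, ran from 0.00321 to 6.66 RPKM with a median of 0.676 at Day 15, from 0.270 to 99.3 RPKM with a median of 2.21 at Day 5, and from 0 to 0.211 RPKM with a median of 0.0278 in Control libraries. All 8 Day 5 libraries and 5 of 7 Day 15 libraries lay above the highest Control library, and 3 Control libraries were at 0. At Day 5 the highest library was replicate 1, followed by replicate 3 at 11.4 RPKM and replicate 8 at 8.08 RPKM.

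Group means of Rab7b were 2.17 ± 2.67 RPKM at Day 15 (SD, n = 7), 15.6 ± 34.1 at Day 5 (SD, n = 8) and 0.0675 ± 0.0800 in Control libraries (SD, n = 10), and the Day 5 mean was 3.59 RPKM without its highest library. At Day 5 it was higher than in Control by a log2 change of 2.15 (SE 0.57, adjusted p = 0.0226 in limma). It was the only tested member whose Day 5 and Control libraries did not overlap, with Day 5 higher, a pattern of 0.533% of all tested genes. Since Rab7b passed the filter through stroke libraries alone, neither the call nor this pattern is separate from that selection. Without the filter its adjusted p was 0.165 in limma.

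The Rab7b call rested on the high Day 5 libraries and on the values as deposited. Without Day 5 replicate 1 the change was 1.52 (adjusted p = 0.0521), and without Day 5 replicate 3 it was 1.96 (adjusted p = 0.0617), and the 3 scalings, a covariate for detected genes and the analysis without a filter also ended the call. Under each of these settings fewer of all tested genes were called than as deposited. The direction of the Rab7b change was the same throughout. Among replicate numbers 1 to 6, Rab7b had a median of 6.01 RPKM at Day 5 and 0.0182 in Control libraries. Among numbers 7 to 10 it had 2.21 at Day 5 and 0.0471 in Control libraries. Within these ranges the log2 change was 2.76 (adjusted p = 0.0869) and 1.55 (adjusted p = 0.221), so neither passed alone.

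Markers of phagocytes were read in the same libraries. Of 16 macrophage markers 11 were tested, and 8 rose at Day 5 against Control (72.7%), beside 6.02% of all tested genes. The summed RPKM of the macrophage markers ran from 58.8 to 688 at Day 15, from 208 to 2636 at Day 5 and from 3.96 to 132 in Control libraries. Of 19 microglia markers 18 were tested, of which 6 rose at Day 5 (33.3%). No marker of either list passed at Day 15 against Control, beside 0.0926% of all tested genes. Changes there were above 0 for all 18 tested microglia markers and 10 of 11 macrophage markers, beside 62.1% of all tested genes. Unadjusted p in limma was under 0.05 for 13 and 4 of them, beside 8.87% of all tested genes. The median change of the microglia markers was 1.73 at Day 15 and 1.13 at Day 5. The microglia sums ran from 72.3 to 1667 RPKM at Day 15, from 103 to 782 at Day 5 and from 13.7 to 129 in Control libraries. No gene of either list was at 0 throughout a group, and Lyz2, an abundant macrophage transcript, had medians of 32.2 RPKM at Day 15, 174 at Day 5 and 4.56 in Control libraries. Of 9 precursor markers 8 were tested and none passed at Day 5. All 8 had changes above 0 there, beside 84.9% of all tested genes.

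The Day 5 libraries whose removal ended the Rab7b call, replicates 1 and 3, had the highest means of log2(RPKM + 1) over the macrophage markers of all libraries, 3.53 and 3.85, and means of 3.56 and 3.66 over the microglia markers. They also had the highest means of all libraries over the precursor markers, 2.89 and 2.95. Both held more genes at 1 RPKM or more than any other library, 5747 and 6592. Other libraries with high phagocyte marker means differed in Rab7b. Day 15 replicate 3 had a microglia mean of 3.71, with Rab7b at 5.00 RPKM. Day 5 replicate 10 and Day 15 replicate 5 had macrophage means of 3.36 each, with Rab7b at 3.70 and 2.44 RPKM. Day 15 replicate 2 had the highest microglia mean, 3.84, with Rab7b at 0.00321 RPKM. It also had the fewest genes above 0 of all 25 libraries, 8255. Day 5 replicate 4 had a macrophage mean of 3.45, with Rab7b at 0.606 RPKM. The part of these cells in the Rab7b result was not tested.

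**Figure D3:**
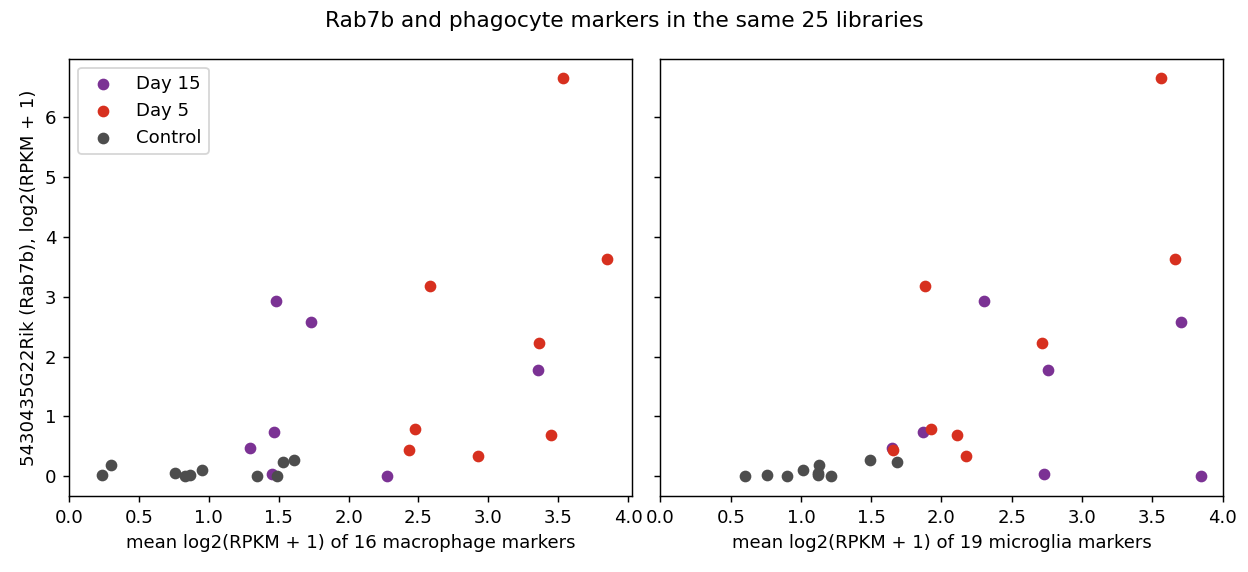
Rab7b in each library (y axis, log2(RPKM + 1)) against the mean log2(RPKM + 1) of the macrophage and of the microglia markers (x axes), with points coloured by group. Control libraries sit at the lower left with Rab7b at or under 0.211 RPKM. Day 15 replicate 2 combines the highest microglia mean (3.84) with almost no Rab7b, while Day 15 replicate 3 (3.71) has 5.00 RPKM.

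Rab7, which directs late endosomes and phagosomes to lysosomes, was about as high in both stroke groups. It ran from 1.34 to 26.6 RPKM with a median of 3.72 at Day 15, from 1.45 to 27.5 with a median of 4.18 at Day 5, and from 0.105 to 13.1 with a median of 0.802 in Control libraries. The lowest stroke library was above the Control median, but Control replicates 4, 2, 9 and 8 reached into the stroke range at 13.1, 4.25, 2.32 and 1.74 RPKM. At Day 5 against Control the log2 change of Rab7 was 1.34 (SE 0.62, 95% interval 0.09 to 2.59), which did not pass after adjustment (limma adjusted p = 0.162). Rab32, which serves lysosome-related organelles and mitochondria, had medians of 0.252 RPKM at Day 15, 1.21 at Day 5 and 0.165 in Control libraries. Its highest value was 32.4 RPKM in Control replicate 1, where the next Control library had 1.57, and its Day 5 change was 0.53 (adjusted p = 0.542). Rab38, its close relative in melanosome biogenesis, was at 0 in all 7 Day 15 libraries and reached at most 0.0618 RPKM at Day 5 and 0.239 in Control libraries.

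**Figure D4:**
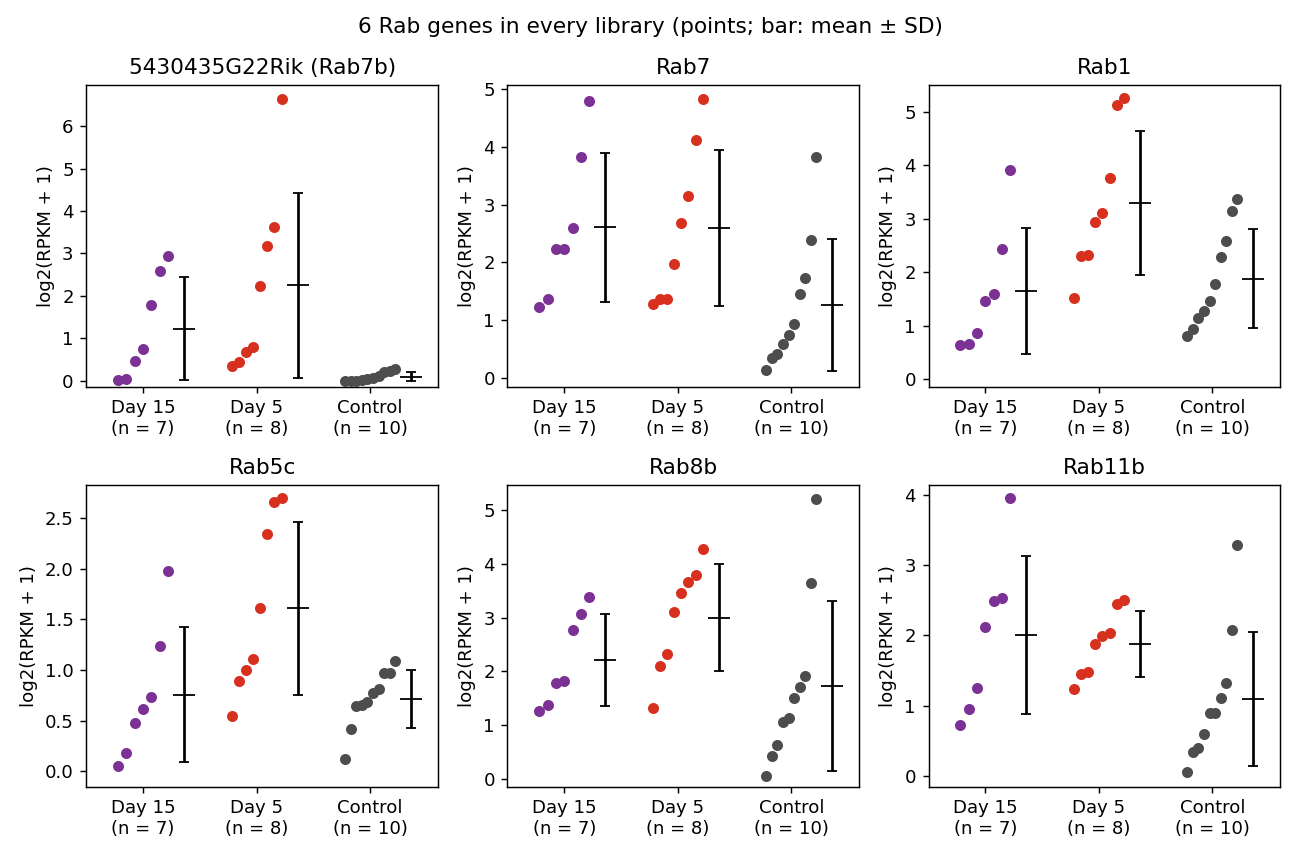
Expression of 6 Rab genes in every library (points, log2(RPKM + 1)), with the group mean ± SD beside them, for Day 15 (n = 7), Day 5 (n = 8) and Control (n = 10). Rab7b is the gene whose Day 5 points all lie above the Control points, while the groups of Rab7, Rab1, Rab5c, Rab8b and Rab11b overlap.

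Of the early endosome Rabs 3 of 7 were tested and none passed at Day 5, beside 6.04% of all tested genes. All 3 had changes above 0, beside 84.9% of all tested genes. Rab5c, of the family that drives fusion of early endosomes, ran from 0.0372 to 2.95 RPKM with a median of 0.535 at Day 15, from 0.460 to 5.49 with a median of 1.61 at Day 5, and from 0.0884 to 1.13 with a median of 0.655 in Control libraries. Day 5 libraries reached several times the Control maximum, yet the lowest Day 5 library lay below the Control median. The Day 5 change was 0.89 (SE 0.41, 95% interval 0.08 to 1.71, limma adjusted p = 0.151). The other Rab5 genes were under the filter. Rab5b averaged 0.418 ± 0.340 RPKM at Day 15 (SD, n = 7), 1.46 ± 1.15 at Day 5 (SD, n = 8) and 0.342 ± 0.390 in Control libraries (SD, n = 10). Rab5a averaged 0.724 ± 0.754 RPKM at Day 15, 0.822 ± 0.748 at Day 5 and 0.848 ± 1.34 in Control libraries, or 0.554 without Control replicate 2, so its groups lay within each other's spread. Rab31, which works between the Golgi and endosomes, was the most abundant of this role, with highest values of 24.5 RPKM at Day 15, 34.3 at Day 5 and 31.8 in Control libraries.

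Of the recycling and surface Rabs 7 of 13 were tested and none passed at Day 5, beside 6.04% of all tested genes. There 6 of the 7 had changes above 0, beside 84.9% of all tested genes. Rab8b, which brings vesicles to the plasma membrane, ran from 1.41 to 9.46 RPKM with a median of 2.53 at Day 15, from 1.48 to 18.4 with a median of 8.75 at Day 5, and from 0.0355 to 36.2 with a median of 1.49 in Control libraries. Its single highest library was thus a Control, replicate 10, although the Control median was the lowest of the 3 groups. The Day 5 change of Rab8b was 1.28 (SE 0.63, 95% interval 0.01 to 2.54, limma adjusted p = 0.188). Rab11b, of the recycling endosome, ran from 0.649 to 14.4 RPKM with a median of 3.34 at Day 15, from 1.37 to 4.68 with a median of 2.82 at Day 5, and from 0.0413 to 8.73 with a median of 0.864 in Control libraries. Both stroke medians were above the Control median, and the Day 5 change was 0.78 (adjusted p = 0.330).

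The remaining recycling Rabs named here showed smaller differences. Rab11a had medians of 0.843 RPKM at Day 15, 1.00 at Day 5 and 0.431 in Control libraries, although its Control mean of 2.08 RPKM, which was 1.26 without replicate 4, was the highest of the 3. Rab8a had medians of 0.387 RPKM at Day 15, 1.53 at Day 5 and 0.246 in Control libraries, with a Day 5 change of 0.33 (adjusted p = 0.607). Its fitted change was below 0 at Day 5 under each of the 3 scalings. Rab10, which carries membrane to the cell surface, reached 47.5 RPKM at Day 15, 28.3 at Day 5 and 34.0 in Control libraries, each in a single library, and its Day 5 change was 0.40 (adjusted p = 0.734). The Day 5 change of Rab14 was 0.02, the smallest above 0 among the tested members (adjusted p = 0.991).

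Of the endoplasmic reticulum and Golgi Rabs 7 of 14 were tested and none passed at Day 5, beside 6.04% of all tested genes. Changes were above 0 for 6 of the 7, beside 84.9% of all tested genes. Rab1, which moves vesicles from the endoplasmic reticulum to the Golgi, ran from 0.550 to 14.0 RPKM with a median of 1.75 at Day 15, from 1.87 to 37.6 with a median of 7.12 at Day 5, and from 0.749 to 9.41 with a median of 2.09 in Control libraries. Day 5 replicates 3 and 10 stood out at 37.6 and 34.2 RPKM, while the lower Day 5 libraries lay inside the Control range. The Day 5 change was 1.42 (SE 0.61, 95% interval 0.19 to 2.65, limma adjusted p = 0.135). Its paralog Rab1b, under the filter, had medians of 0.102 RPKM at Day 15, 0.450 at Day 5 and 0.160 in Control libraries, with 20.1 RPKM in Day 5 replicate 10 and 17.4 in replicate 1. Rab6a, which works in traffic from and to the Golgi, had the highest mean over all libraries, with medians of 1.64 RPKM at Day 15, 6.16 at Day 5 and 2.27 in Control libraries. Control replicates 10 and 9 held 54.9 and 46.7 RPKM of it. Its Day 5 change was 0.61 (adjusted p = 0.591), and it was below 0 under each of the 3 scalings. Rab18, found on lipid droplets and the endoplasmic reticulum, had a log2 change of 0.57 at Day 5 (adjusted p = 0.471), which was below 0 (-0.03) with quantile normalization.

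None of the 8 secretory Rabs and none of the 6 others reached the filter. Rab3a, a Rab of synaptic vesicles, had medians of 0.00977 RPKM at Day 15, 0.0386 at Day 5 and 0.0764 in Control libraries, with single values of 7.72 RPKM in Day 15 replicate 3 and 2.14 in Control replicate 7. The neuron markers summed to 0.0610 to 76.0 RPKM at Day 15, 1.21 to 4.56 at Day 5 and 1.74 to 20.5 in Control libraries, and their part in Rab3a was not tested. Rab27a, which docks secretory lysosomes and exosome-bearing bodies, had medians of 0.0368 RPKM at Day 15, 0.148 at Day 5 and 0.00347 in Control libraries, and the groups overlapped. Its means were 0.271, 0.191 and 0.0351 RPKM at Day 15, at Day 5 and in Control libraries, or 0.152 and 0.107 in the stroke groups without Day 15 replicate 9 and Day 5 replicate 1.

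The comparison of Day 15 with Control asks which differences were present later. No Rab gene passed, against 4 of 4319 tested genes (0.0926%), and the members' adjusted p ran from 0.551 to 0.992. Unadjusted p was under 0.05 for 1 member, Rab7, and for 383 of all tested genes (8.87%). Groups without overlap occurred for none of the members and for 0.0695% of all tested genes with Day 15 higher and 0.0232% with Day 15 lower. The members' median change was -0.13 with 8 of 20 above 0, beside 0.17 and 62.1% over all tested genes. With upper-quartile, sum and quantile scaling the members' median was -0.37, -0.40 and -0.32, and that of all tested genes -0.02, -0.10 and -0.03. Rab7 had the smallest p, with a change of 1.35 (SE 0.65, 95% interval 0.05 to 2.65, limma adjusted p = 0.551). Rab7b had a log2 change of 1.13 (SE 0.60, 95% interval -0.07 to 2.33, adjusted p = 0.585), with Day 15 replicates 9, 3 and 5 at 6.66, 5.00 and 2.44 RPKM and replicates 2 and 6 within the Control range. Rab11b had a log2 change of 0.91 (adjusted p = 0.644). Rab43, a Golgi Rab, had a log2 change of 0.66 (adjusted p = 0.742), and of -0.19 among replicate numbers 7 to 10. Rab12, of recycling endosomes, had a log2 change of -0.45 (adjusted p = 0.816). The Day 15 and Day 5 changes share their Control libraries, so their likeness is not separate evidence.

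The comparison of Day 15 with Day 5 asks whether the stroke groups differed from each other. No Rab gene passed and none of the 4319 tested genes did (0%), while 1 member, Rab1, and 633 tested genes (14.7%) had an unadjusted p under 0.05. Groups without overlap occurred for none of the members, and with Day 15 lower for 0.301% of all tested genes. The members' adjusted p ran from 0.263 to 0.994, and their median change of -0.46 lay beside -0.44 over all tested genes. Both were nearer 0 with upper-quartile, sum and quantile scaling, at -0.17, -0.26 and -0.09 for the members and -0.12, -0.23 and -0.0021 for all tested genes. Rab1 had the smallest p, with a change of -1.65 (SE 0.67, 95% interval -2.99 to -0.31, limma adjusted p = 0.263). Rab5c had a log2 change of -0.85 (adjusted p = 0.353), Rab8a of -0.71 (adjusted p = 0.426) and Rab6a of -1.19 (adjusted p = 0.464). Rab7b had a log2 change of -1.02 (SE 0.63, 95% interval -2.28 to 0.24, adjusted p = 0.455), so its level at Day 15 was shown to differ neither from Day 5 nor from Control. Rab7 had a log2 change of 0.01 (95% interval -1.35 to 1.38, adjusted p = 0.994), an interval that leaves room for a difference of either sign.

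The proteins that switch, carry and read Rabs were followed in a list of 76 genes, of which 36 were tested. At Day 5 against Control 1 rose (2.78%, beside 6.04% of all tested genes) and none fell. The median change was 0.36 with 29 of 36 above 0, beside 0.61 and 84.9% over all tested genes. The median of the 36 was -0.18 with upper-quartile scaling, -0.12 with sum scaling and -0.31 with quantile normalization, so its sign depended on the scaling. The gene that rose was Rin2, an exchange factor for Rab5. It ran from 0.176 to 3.36 RPKM with a median of 0.971 at Day 15, from 0.0800 to 32.5 with a median of 2.82 at Day 5, and from 0.0315 to 2.12 with a median of 0.373 in Control libraries. Day 5 replicate 1, also the highest for Rab7b, was the highest, and the groups overlapped. Rin2 rose by a log2 change of 1.74 at Day 5 (SE 0.52, limma adjusted p = 0.0371). The call ended without any one of 10 single libraries, Day 5 replicates 1, 3, 4 and 10 and Control replicates 1, 3, 6, 7, 9 and 10 (adjusted p 0.0503 to 0.103), and without the 3 libraries that resemble each other (change 1.67, adjusted p = 0.0581). The scalings, the covariate for detected genes and the analysis without a filter ended it too, and the change was 2.59 among replicate numbers 1 to 6 (adjusted p = 0.0897) and 0.85 among numbers 7 to 10 (adjusted p = 0.409). Calls among all tested genes were also fewer under each of these settings.

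Gdi2, a GDP dissociation inhibitor that takes Rabs off membranes, missed the threshold at Day 5. It ran from 1.32 to 22.6 RPKM with a median of 6.26 at Day 15, from 1.65 to 325 with a median of 4.45 at Day 5, and from 0.265 to 5.27 with a median of 0.856 in Control libraries. Every stroke library was above the Control median, and Day 5 replicate 3 stood far above the rest. The Day 5 change was 2.08 (SE 0.68, adjusted p = 0.0535), or 1.35 without that library (adjusted p = 0.176), and the Day 15 change 1.68 (SE 0.71, adjusted p = 0.459). The next smallest p at Day 5 belonged to Chm, which presents new Rabs for lipid anchoring (0.84, adjusted p = 0.172), Dennd1b, an exchange factor for Rab35 (0.74, adjusted p = 0.192), and Rab11fip2, an effector of Rab11 (0.71, adjusted p = 0.202).

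None of the 36 passed in the other comparisons, beside 0.0926% of all tested genes at Day 15 against Control and 0% at Day 15 against Day 5. The median change of the 36 at Day 15 against Control was 0.12 as deposited, and -0.11, -0.21 and -0.10 with upper-quartile, sum and quantile scaling. The smallest p there belonged to Rufy1, an endosomal Rab effector (1.33, adjusted p = 0.435), and Vps39, a subunit of the tether that binds Rab7 (0.89, adjusted p = 0.456). At Day 15 against Day 5 the median was -0.18 as deposited and -0.52 with a pseudocount of 0.1, but 0.11, 0.01 and 0.25 with upper-quartile, sum and quantile scaling. The smallest p in that comparison belonged to Rin2 (-1.32, adjusted p = 0.273), Tbc1d15, a GTPase-activating protein for Rab7 (-1.49, adjusted p = 0.279), and Eea1, the early endosome tether that binds Rab5 (-1.46, adjusted p = 0.353). Eea1 reached 158 RPKM in Day 5 replicate 1, where the next Day 5 library had 20.2.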

How the data were processed

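Per the labels, RNA was amplified to cDNA (Nugen Ovation), made into Illumina TruSeq libraries and read as paired ends of 100 bases. The tools named in the submitters' processing notes are CASAVA 1.8.3, STAR 2.1.4a and HTSeq, and the build is mm9. The authors deposited RPKM for each gene and library. The sources used here do not say how reads, strand and gene lengths entered them, and the depth is unknown. Amplification of small samples widens the spread and can drop low transcripts.

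Groups came from the labels. Values were taken as log2(RPKM + 1), which understates changes of low genes. Of 23351 genes (741 at 0 throughout, 25 with symbols turned into dates), 4319 reached 1 RPKM in at least 7 libraries and were fitted in all 3 groups together with limma 3.58.1 in R 4.3.3 (intensity trend, robust, two-sided), with Benjamini-Hochberg adjustment and calls at an adjusted p under 0.05. Only the Rab genes and fixed lists are printed. Members, lists and tests were chosen with earlier results of these data known. Named genes are called members, the 10 members with the smallest p at Day 5 and the 5 in each other comparison, the 8 most abundant, a panel of 11, and regulators called or with the smallest p (5 at Day 5, 3 elsewhere). Rab1b, Rab2a, Rab2b, Rab6b, Rab7l1, Rab9, Rab17 and Rab20 fall outside this rule and were named after their values were seen.

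All 59 members matched GENCODE M21 by name, and identity, shared stretches of 100 bases and exon overlap were computed from it with Python 3.11.15. The fit was tested on simulated data in which 200 of 4319 genes rose at Day 5. It recovered 1.3% of them at a log2 rise of 1, where 13.3% of calls were false. At a rise of 2 it recovered 64.8%, where 4.85% of calls were false. The simulated noise was independent between genes, with no shift common to a library, so these shares need not hold for the real libraries. A Rab gene that did not pass may thus still differ. Alternatives were a pseudocount of 0.1, no filter, upper-quartile, sum (without Rn45s, the ribosomal RNA precursor) and quantile scaling, a replicate block, detected genes or replicate number range (1 to 6, 7 to 10) as a covariate, each range alone, the fit without 3 libraries of like profile, and without each library in turn. The number of value columns left unused was 0.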

Additional observations from a re-analysis of the deposited data

Results flagged for a closer look

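Among 30 named genes, the highest or lowest library of a group was compared with the rest by Dixon's criterion on log2(RPKM + 1), in 89 groups. It marked 15 values in 7 libraries, and chance marks about 1 group in 20. Among endosomal and surface Rabs, Rab10 had 47.5 RPKM in Day 15 replicate 3, where the next Day 15 library had 4.21. Rab32 had 32.4 RPKM in Control replicate 1 (next 1.57), and Rab5b had 1.33 RPKM in Control replicate 2 (next 0.501). Rab38 had 0.0618 RPKM in Day 5 replicate 1 (next 0.0151) and 0.239 RPKM in Control replicate 7 (next 0.0276). Rab18, of lipid droplets, had 41.3 RPKM in Day 15 replicate 6 (next 2.05).

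The secretory Rabs gave 4 of these values. Rab3a had 7.72 RPKM in Day 15 replicate 3 (next 0.0846), 0.344 RPKM in Day 5 replicate 1 (next 0.102) and 2.14 RPKM in Control replicate 7 (next 0.448). Rab27a had 0.776 RPKM in Day 5 replicate 1 (next 0.182). Among regulators and effectors, Gdi2 had 325 RPKM in Day 5 replicate 3 (next 15.1), Rab11fip2 had 7.26 RPKM in Day 5 replicate 1 (next 1.07), Vps39 had 8.78 RPKM in Day 15 replicate 6 (next 2.23) and Rufy1 had 3.90 RPKM in Control replicate 7 (next 0.533). Chm was low in Day 15 replicate 3 at 0.283 RPKM. Day 5 replicate 1 held 4 of the 15 values, and Day 15 replicate 3 and Control replicate 7 held 3 each.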

How the results depend on the processing

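The count of Rab genes called at Day 5 against Control was 1 as deposited and 0 without a filter, with upper-quartile, sum or quantile scaling, with detected genes as a covariate, and within either range of replicate numbers. It ran from 0 to 1 when single libraries were left out, with 0 without Day 5 replicate 1 or 3. Calls over the whole table fell as well. Of 4319 tested genes 260 rose as deposited, and 18, 29 and 14 with upper-quartile, sum and quantile scaling. With detected genes as a covariate 65 rose, and 4 within each range of replicate numbers. Without a filter 24 of 22610 rose. Without Day 5 replicate 1 the number was 133, and without replicate 3 it was 95. For Rab7b the change at Day 5 was 2.15 without a filter (adjusted p = 0.165), 1.69 with upper-quartile scaling (0.110), 1.76 with sum scaling (0.0815), 1.58 with quantile normalization (0.145) and 1.82 with detected genes as a covariate (0.110). It passed with a pseudocount of 0.1 (4.19), with the number range as a covariate (2.19) and without the 3 libraries that resemble each other (2.38). The regulators and effectors called at Day 5 numbered 1 as deposited, 2 with a pseudocount of 0.1 or the number range as a covariate, where Gdi2 joined Rin2, and 0 without a filter, under the 3 scalings, with detected genes as a covariate, within either range and without those 3 libraries. They ran from 0 to 2 when single libraries were left out.

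Signs turned in 11 values of genes that had not passed. With quantile normalization Rab18 at Day 5 was at -0.0303 and Rab32 at -0.00656. Rab6a at Day 5 was at -0.24 with upper-quartile scaling, -0.16 with sum scaling, -0.21 with quantile normalization, -0.00119 with detected genes as a covariate and -1.11 among numbers 7 to 10. Rab8a at Day 5 was at -0.22 with upper-quartile and -0.22 with sum scaling and at -0.40 with quantile normalization. Rab43 at Day 15 against Control was at -0.19 among numbers 7 to 10. The cause of these changes was not tested. No Rab gene passed at Day 15 against Control or Day 5 under any setting run.

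Libraries with the same replicate number in different groups did not deviate together, with correlations of -0.057 to 0.084 over 20 pairs. Of 25 libraries, 2 were closest to their own number. These values showed no pairing by number. With so wide a spread between libraries they cannot exclude that same-numbered libraries shared an animal or a run. With the replicate block, Rab7b at Day 5 was at 2.11 (adjusted p = 0.0168), 1 Rab gene was called, and 2 regulators were. RPKM carries no read counts, so what depth limits could not be stated.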

Other observations

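Rab20, an endosomal and phagosomal Rab under the filter, was listed at 0 in all 10 Control libraries. It was above 0 in 2 of 7 Day 15 libraries and in 7 of 8 Day 5 libraries, with its highest value, 1.22 RPKM, in Day 5 replicate 6. The next highest library held 0.243 RPKM of it. Of all genes in the table, 1873 were at 0 in every Control library. Among these, 14 (0.06% of all genes) were above 0 in at least 7 Day 5 libraries, a cut taken from Rab20 itself. Day 5 libraries held more genes above 0 in general, with a median of 18119 against 12917 at Day 15 and 12553.5 in Control libraries. Rab20 was singled out after its values were seen, and no test was made. Rab7l1, which works at lysosomes and the Golgi, and also under the filter, had medians of 0.00476 RPKM at Day 15, 0.329 at Day 5 and 0.00714 in Control libraries, with 5.26 RPKM in Day 5 replicate 6. Rab17, known from epithelial cells, reached 15.6 RPKM in Day 15 replicate 8 and at most 0.241 RPKM in any Control library.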
